A study of Mus musculus with 80 samples.

Results

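Ribosome-bound RNA of mouse microglia was compared between cold mechanical dissociation (Dounce-TRAP) and warm enzymatic dissociation without inhibitors (Cell-TRAP (-) Inhibitors, below Cell-TRAP) of the brain. By the sample titles, Dounce-TRAP took the positive TRAP fractions of the 4 Dounce preparations. Cell-TRAP took those of the 4 unsorted enzymatic suspensions made without inhibitors of transcription and translation in the inhibitor experiment of the study. Together these were 8 of the 80 samples of the series. TRAP libraries of 4 other unsorted enzymatic suspensions, from its comparison of sort methods, were not compared here. All mice carried the genotype Cx3cr1(Jung)-cre/Ert2+;NuTRAP+ and received tamoxifen (100 mg/kg body weight a day) at about 3 months of age, and brains were taken at least 2 months later. In these mice the inducible Cre, driven from the Cx3cr1 locus, switches on a ribosome tag carrying eGFP and a tag on the nuclear envelope, and TRAP (translating ribosome affinity purification) pulls down the tagged ribosomes with their RNA. The Cre also acts in other Cx3cr1-expressing cells, among them border-associated macrophages and monocytes, and the wait before brains were taken allowed tagged blood cells to be replaced, as the study found for blood. For Dounce-TRAP, brain tissue was broken up in a glass homogenizer with every step at 4 °C or on ice and cleared on a 40% Percoll gradient. For Cell-TRAP, it was incubated for 30 min at 37 °C in a papain-based enzyme mix in an automated dissociator. Levels are also given for Cell-TRAP with inhibitors of transcription and translation, for Tissue-TRAP, which homogenizes tissue directly in lysis buffer, and for the Inputs, the lysates before TRAP, none of which was tested here. Cell-TRAP with and without inhibitors came from the same mice, and each Input from the mouse of its TRAP fraction. The 2 groups compared came from different mice, and cell preparation, gradient, animals and the separately numbered sequencing samples of the Dounce libraries changed together, so that they cannot be told apart. The methods of the study describe hemispheres for both preparations, but its results state that RNA from Dounce-Input needed an entire brain. The amount of tissue may therefore have differed too.

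Microglia are the resident macrophages of the brain and sense damage to it. Damage, enzymes and warmth can switch on immediate early genes, which need no new protein for their transcription, within minutes, and cytokine and chemokine genes follow. Transcription is slow in the cold, so that RNA levels change little in tissue kept on ice.

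Total expected counts were 3597293, 4724538, 2471448 and 3209894 in Dounce-TRAP replicates 1 to 4 and 14650287, 13707799, 12876223 and 13455433 in Cell-TRAP replicates 1 to 4. Every Dounce library was thus shallower than every Cell-TRAP library, and Dounce replicate 3 was the shallowest. The sequencing metrics of the study also list lower RNA integrity, lower yields and higher duplicate shares for the Dounce libraries, and its gene-body plots more 3′ bias, and the part of depth and RNA quality in the results below was not tested. Levels are given in CPM after TMM scaling, in the order of the replicates, and positions are on mm10.

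Of 14753 genes tested, 4238 (28.7%) were called by edgeR's quasi-likelihood test at a Benjamini-Hochberg adjusted p under 0.1 and a fold change over 2. Of these, 3053 (20.7% of the genes tested) were higher and 1185 (8.03%) lower in Dounce-TRAP, so that 72.04% of the calls were higher. The counts of calls in each list below are to be read beside these shares of all genes. Lists other than the markers of the study were chosen with earlier results of these data known. Log2 fold changes are Dounce-TRAP minus Cell-TRAP, and their median over the genes tested was -0.01. With all libraries scaled to the microglial markers of the study it became 0.50, a shift of 0.51, with 4394 genes higher and 621 lower (87.6% of calls higher). On the log2 values normalized by the authors the shift was -0.18, with 2605 genes higher and 1846 lower (58.5% of calls higher). Of the 10266 genes with at least 10 counts in each of 16 libraries, 1561 were called higher and 315 lower. This filter drops genes with few counts in any library, and so many falls to few counts in the shallow Dounce libraries. Its counts and medians, here and below, therefore cannot check those falls. No library of one group overlapped the other group for 6135 of the genes tested (41.6%).

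**Figure D1:**
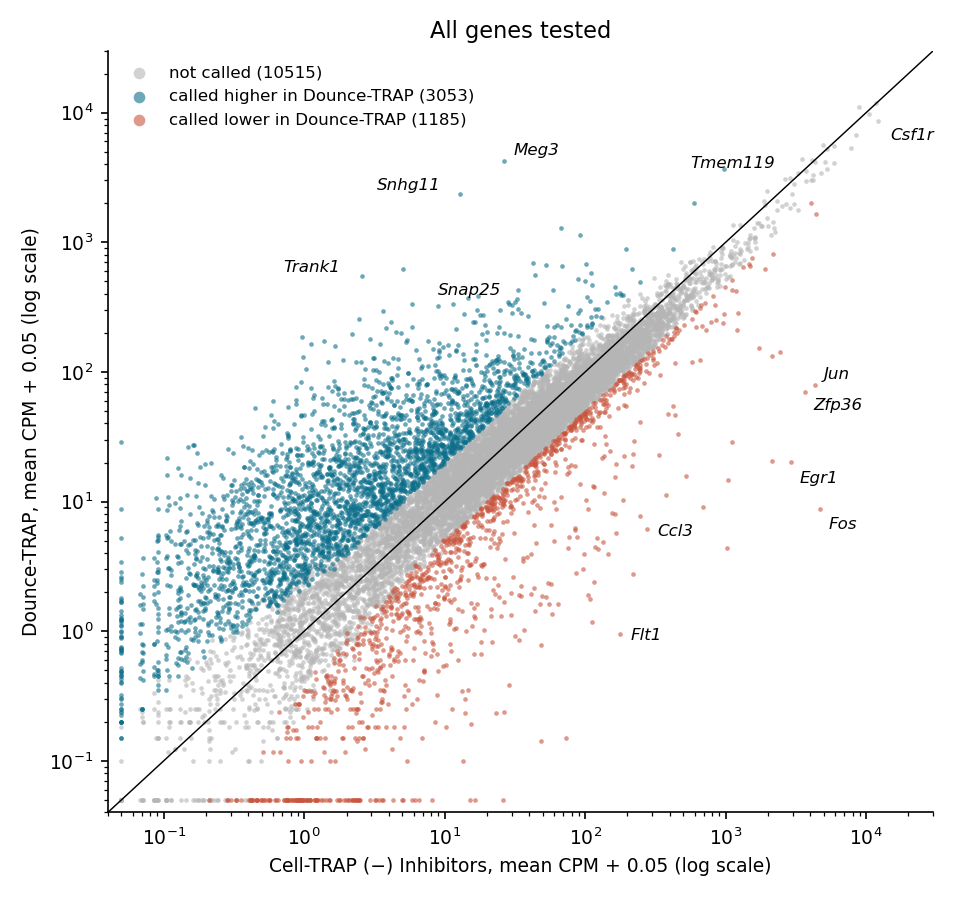
Mean CPM of each gene tested in Cell-TRAP (-) Inhibitors (horizontal) and Dounce-TRAP (vertical), both on log scales after adding 0.05, with the line of equal levels. Points are coloured by call, and labelled genes are described in the text. Early-response genes such as Fos, Egr1, Jun and Zfp36 lie far below the line, and Tmem119 and Csf1r lie near it.

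The defining genes of microglia were high in both groups, with differences under the fold threshold. Tmem119 (Entrez gene 231633, chromosome 5, 113793729 to 113800352), a membrane protein used as a microglial marker, was counted at 3256, 2877, 2877 and 3442 CPM in Dounce-TRAP and at 2922, 3364, 3073 and 2148 CPM in Cell-TRAP. The groups overlapped, and the gene was not called (log2 fold change 0.11 ± 0.12 SE, adjusted p = 0.425). P2ry12 (Entrez gene 70839, chromosome 3, 59216271 to 59262831), the ADP receptor that guides microglial processes, stood at 3393, 3166, 2366 and 3292 CPM in Dounce-TRAP and at 2476, 3236, 2649.6 and 2242 CPM in Cell-TRAP. It was not called either (log2 fold change 0.20 ± 0.12 SE, adjusted p = 0.15), and Dounce replicate 3 was the lowest of its group. Cx3cr1, the fractalkine receptor whose locus drives the Cre, was counted at 3605, 3215, 2995 and 3795 CPM in Dounce-TRAP and at 2992, 3539, 3282 and 3362 CPM in Cell-TRAP (log2 fold change 0.05 ± 0.09 SE). Csf1r (Entrez gene 12978, chromosome 18, 61105572 to 61131139), the receptor on which microglial survival depends, had 9262, 9664, 6234 and 9204 CPM in Dounce-TRAP and 11353, 12515, 11989.7 and 12795 CPM in Cell-TRAP. Its groups did not overlap, Dounce replicate 3 stood below the other 3 Dounce libraries, and the difference was under the fold threshold (log2 fold change -0.50 ± 0.11 SE, adjusted p = 0.00066). Siglech, a sialic acid-binding lectin, had log2 fold change -0.32 ± 0.09 SE, and C1qa, a chain of complement C1q, -0.30 ± 0.10 SE. Tissue-TRAP, with more neuronal RNA, held Tmem119 at 614 ± 35.2 CPM and P2ry12 at 196 ± 16.9 CPM (SD, n = 4 each), below both groups, so that its levels of other microglial genes are not on an equal share of microglial RNA.

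None of the 25 homeostatic microglial genes was called by edgeR, DESeq2's Wald test or limma, against 28.7% of all genes by edgeR. Calls were rarer among abundant genes, with 6.56% called higher and 6.34% lower in the highest quartile of mean CPM. Of the 25, 14 had an unadjusted p under 0.05 and 14 an adjusted p under 0.1. For 12 of the 25 the groups did not overlap, a share near the 41.6% of all genes tested. Their log2 fold changes ran from -0.57 to 0.32. Their median was -0.30 and turned to 0.23 with scaling to the microglial markers. Summed, they took 84744, 77222, 78202 and 86967 CPM in Dounce-TRAP and 85556, 97632, 93035 and 84658 CPM in Cell-TRAP. Cst3 (cystatin C), Ctsd (cathepsin D), Csf1r and Ctss (cathepsin S) were among the genes with the highest mean CPM in both groups, and none of these 4 was called. Log2 fold changes were 0.02 ± 0.10 SE for Cst3, -0.09 ± 0.08 SE for Ctsd and -0.34 ± 0.09 SE for Ctss.

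The 282 microglial markers of the study, which the authors took from earlier published cell type data, summed to 181034, 168454, 157211 and 181346 CPM in Dounce-TRAP and 207563, 230566, 227902 and 225237 CPM in Cell-TRAP. Every Dounce library was below every Cell-TRAP library. In the Inputs these markers summed to 16833 ± 2202 CPM in Dounce-Input and 53070 ± 7933 CPM in Cell-Input without inhibitors (SD, n = 4 each). Of these markers 2 were called higher, 46 lower and 234 neither, with a median of -0.46 (0.05 with scaling to the markers themselves). With that scaling 5 were called higher and 26 lower, and of the 270 with at least 10 counts in every library 0 higher and 30 lower. In bulk samples, fewer cells of a type and less RNA per cell cannot be told apart. Among the called markers with at least 20 CPM in the higher group and no overlap, the 5 largest falls were in early-response and inflammatory genes, Atf3, Zfp36, Ccl3, Nfkbid and Ccl7. Gdf15, a stress-induced cytokine under that level, had 0 counts in all 4 Dounce libraries and 1.56, 1.03, 1.76 and 8.33 CPM in Cell-TRAP, lower by at least 15.2-fold, or at least 7.14-fold without Cell-TRAP replicate 4, the highest, and at least 10.1-fold without Dounce replicate 2. The 2 markers called higher were Gm14023, a transcript that overlaps Il1a, and Ccr2, the chemokine receptor of monocytes, counted at 22.7, 16.2, 19.8 and 23.2 CPM in Dounce-TRAP and at 7.23, 9.18, 12.7 and 10.4 CPM in Cell-TRAP (log2 fold change 1.05 ± 0.25 SE, adjusted p = 0.0016). Ccr2 lost its call on the authors' log2 values and without Cell-TRAP replicate 1 (0.92), Dounce replicate 1 (0.99) or Dounce replicate 4 (0.98).

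Immediate early transcription factors had some of the largest falls. Fos (Entrez gene 14281, chromosome 12, 85473901 to 85477270), a subunit of the dimeric factor AP-1, was counted at 9.33, 6.79, 16.03 and 2.98 CPM in Dounce-TRAP and at 3389, 3942, 5062 and 6489.6 CPM in Cell-TRAP. Every Dounce library was far below every Cell-TRAP library, where replicates 3 and 4 were above 1 and 2 (log2 fold change -9.13 ± 0.41 SE, adjusted p = 1.22e-11). Its level was 19.1 ± 4.99 CPM in Cell-TRAP with inhibitors and 29.7 ± 10.8 CPM in Tissue-TRAP (SD, n = 4 each). Fosb, a second Fos-family subunit, was counted at 4.27, 0.399, 12.7 and 0 CPM in Dounce-TRAP and at 609, 685, 1105 and 1697 CPM in Cell-TRAP (log2 fold change -8.11 ± 0.59 SE, adjusted p = 3.87e-09, -9.41 without Dounce replicate 3 and -9.65 on the authors' log2 values). Jun (Entrez gene 16476, chromosome 4, 95049036 to 95052222), the partner of Fos in AP-1, was counted at 89.3, 72.5, 75.7 and 80.4 CPM in Dounce-TRAP and at 3275, 3723, 5138 and 5222 CPM in Cell-TRAP. The groups were far apart, and the Dounce libraries differed little among themselves (log2 fold change -5.77 ± 0.17 SE, adjusted p = 1.63e-13). Jun stood at 119 ± 6.79 CPM in Cell-TRAP with inhibitors and 82.5 ± 14.8 CPM in Tissue-TRAP (SD, n = 4 each). Atf3 (Entrez gene 11910, chromosome 1, 191170297 to 191183333), a stress-induced factor that pairs with Jun proteins, was counted at 13.3, 9.58, 9.69 and 26.2 CPM in Dounce-TRAP and at 694, 741, 1234 and 1499 CPM in Cell-TRAP. Dounce replicate 4 was the highest of its group and still far below Cell-TRAP (log2 fold change -6.16 ± 0.31 SE, adjusted p = 4.56e-11).

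Of the AP-1 and ATF factors, 8 of 11 tested members were called lower, 0 higher and 3 neither, with a median log2 fold change of -3.59. The members called lower were Fos, Fosb, Fosl2, Jun, Junb, Jund, Atf3 and Maff, and Mafk, Mafg and Batf were not called. Of the 8 with at least 10 counts in every library, 5 were called lower. The list summed to 569, 447, 530.0 and 497 CPM in Dounce-TRAP and 11237, 12739, 17459.7 and 20444 CPM in Cell-TRAP. Cell-TRAP with inhibitors had 627 ± 32.9 CPM and Tissue-TRAP 638 ± 90.6 CPM (SD, n = 4 each).

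Egr1 (Entrez gene 13653, chromosome 18, 34861207 to 34864956), a zinc-finger factor induced by growth signals and neuronal activity, was counted at 17.6, 25.8, 19.01 and 18.2 CPM in Dounce-TRAP and at 2141, 2186, 3279 and 4077 CPM in Cell-TRAP. The groups did not overlap (log2 fold change -7.17 ± 0.30 SE, adjusted p = 8.71e-12), and its level was 23.4 ± 5.69 CPM in Cell-TRAP with inhibitors and 108 ± 30.3 CPM in Tissue-TRAP (SD, n = 4 each). Of the Egr and Nr4a factors, 4 of 8 tested members were called lower, 0 higher and 4 neither, with a median log2 fold change of -2.40. The median was -3.75 when only the 8 compared libraries were fitted (4 of 7 lower), -2.998 without Dounce replicate 1 (5 lower) and -3.68 over the 3 with at least 10 counts in every library (2 lower). With scaling to the microglial markers, or without Dounce replicate 3 or 4, 1 was called higher. Egr1, Egr2, Egr3 and Nr4a1 were called lower. Egr4, Nr4a2, Nr4a3 and Srf were not, of which Srf, the factor that binds CArG boxes, was counted at 50.7, 51.3, 36.9 and 30.7 CPM in Dounce-TRAP and at 44.3, 47.9, 50.6 and 51.7 CPM in Cell-TRAP, a gene picked for this contrast after its values were seen.

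Zfp36 (Entrez gene 22695, chromosome 7, 28376784 to 28379228), which encodes tristetraprolin and speeds the decay of cytokine RNAs, was counted at 86.4, 56.5, 60.005 and 79.2 CPM in Dounce-TRAP and at 2895, 3319, 3877 and 4584 CPM in Cell-TRAP. All Dounce libraries were far below all Cell-TRAP libraries (log2 fold change -5.70 ± 0.19 SE, adjusted p = 4.06e-13). Ier2, an early-response nuclear protein, was counted at 10.9, 8.78, 5.96 and 10.4 CPM in Dounce-TRAP and at 543, 509, 779 and 919 CPM in Cell-TRAP (log2 fold change -6.23 ± 0.24 SE, adjusted p = 3.02e-12). Rhob, an early-response small GTPase, took the most counts of its list in both groups and was counted at 1788, 1723, 1446 and 1662 CPM in Dounce-TRAP and at 3686, 4304, 4612 and 5024 CPM in Cell-TRAP. It fell too (log2 fold change -1.41 ± 0.10 SE, adjusted p = 3.98e-09), and its call was lost with scaling to the microglial markers. Among the Ier, Btg, Klf and Zfp36 genes, 13 of 15 tested members were called lower, 0 higher and 2 neither, with a median log2 fold change of -2.52. Only Btg1 and Klf10 were not called.

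Dusp1 (Entrez gene 19252, chromosome 17, 26505591 to 26508472), a phosphatase that switches off MAP kinases, was counted at 26.4, 14.2, 31.7 and 10.1 CPM in Dounce-TRAP and at 1636, 2038, 2087 and 2715 CPM in Cell-TRAP. The groups did not overlap (log2 fold change -6.72 ± 0.29 SE, adjusted p = 9.7e-12), and its level was 44.4 ± 9.54 CPM in Cell-TRAP with inhibitors and 24.9 ± 2.38 CPM in Tissue-TRAP (SD, n = 4 each). Of the MAP kinase phosphatases and Sprouty genes, 5 of 12 tested members were called lower (41.7%, all genes 8.03%), 3 higher (25%, all genes 20.7%) and 4 neither. Their median log2 fold change was 0.09. On the authors' log2 values 1 was called higher and 5 lower (median -0.10), and of the 8 with at least 10 counts in every library 1 higher and 3 lower. Without Dounce replicate 4, 1 was called higher, the median was -0.16 without Dounce replicate 1, and it was 0.58 with scaling to the microglial markers. Dusp1, Dusp2, Dusp4, Dusp6 and Spry1 were called lower, and Dusp5, Dusp8 and Dusp10 higher. Dusp5 was counted at 4.799, 4.59, 9.32 and 3.87 CPM in Dounce-TRAP and at 0.851, 0.949, 1.84 and 5.197 CPM in Cell-TRAP, with overlapping groups (log2 fold change 1.33 ± 0.49 SE, adjusted p = 0.03). Its log2 fold change was 2.19 without Cell-TRAP replicate 4. Its call was lost without Dounce replicate 3 (1.01) and, at about the same fold change (1.37), when only the 8 compared libraries were fitted.

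**Figure D2:**
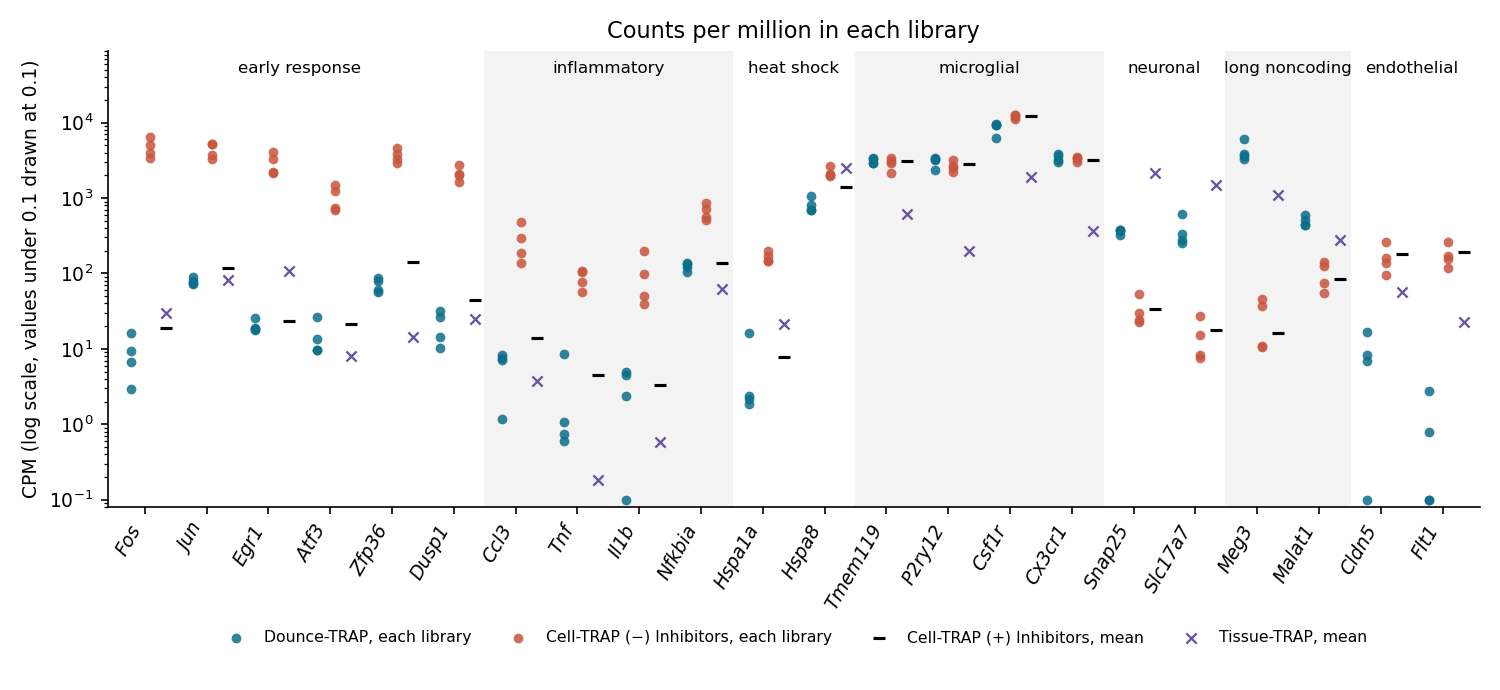
CPM of named genes in each Dounce-TRAP and Cell-TRAP (-) Inhibitors library (points, 4 per group) on a log scale, with the means of Cell-TRAP (+) Inhibitors (bars) and Tissue-TRAP (crosses). Values under 0.1 CPM are drawn at 0.1. Dounce-TRAP lies below Cell-TRAP for the early-response, inflammatory, heat shock and endothelial genes, above it for the neuronal and long noncoding genes, and near it for the microglial genes.

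Nfkbia (Entrez gene 18035, chromosome 12, 55489409 to 55492647), the inhibitor IκBα that NF-κB itself induces, was counted at 121, 106, 133 and 137 CPM in Dounce-TRAP and at 505, 565, 707 and 864 CPM in Cell-TRAP. All Dounce libraries were below all Cell-TRAP libraries (log2 fold change -2.41 ± 0.18 SE, adjusted p = 4.44e-09). Nfkbid, a nuclear IκB protein, was counted at 3.199, 4.39, 4.47 and 3.57 CPM in Dounce-TRAP and at 103, 65.1, 148 and 266 CPM in Cell-TRAP (log2 fold change -5.21 ± 0.42 SE, adjusted p = 1.01e-08). Of the NF-κB subunits and feedback inhibitors, 6 of 17 tested members were called lower, 0 higher and 11 neither. Their median log2 fold change was -0.88, and -0.37 with scaling to the microglial markers. The members called lower were the IκB family genes Nfkbia, Nfkbid, Nfkbiz and Bcl3, the deubiquitinase gene Tnfaip3, and Cd83. None of the 5 subunit genes (Nfkb1, Nfkb2, Rel, Rela and Relb) was called. On the authors' log2 values 9 of the list were called lower.

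Ccl3 (Entrez gene 20302, chromosome 11, 83647843 to 83649378), a chemokine that draws monocytes and other leukocytes, was counted at 7.198, 7.59, 8.199 and 1.19 CPM in Dounce-TRAP and at 186, 138, 295 and 481 CPM in Cell-TRAP. The highest Dounce library was far below the lowest Cell-TRAP library, where replicate 4 was highest (log2 fold change -5.49 ± 0.44 SE, adjusted p = 9.88e-09). Ccl4, a related chemokine whose annotated span overlaps that of Ccl3, was counted at 11.997, 1.996, 8.94 and 7.74 CPM in Dounce-TRAP and at 156, 119, 275 and 431 CPM in Cell-TRAP (log2 fold change -5.06 ± 0.45 SE, adjusted p = 4.41e-08). Ccl7, a ligand of Ccr2, was counted at 1.87, 0.798, 0 and 3.57 CPM in Dounce-TRAP and at 50.5, 37.6, 74.7 and 58.5 CPM in Cell-TRAP (log2 fold change -5.13 ± 0.50 SE, adjusted p = 1.46e-07, -5.84 without Dounce replicate 4 and -6.02 on the authors' log2 values). Of the chemokines, 9 of 14 tested members were called lower, 1 higher and 4 neither, with a median log2 fold change of -2.55. The median was -3.21 without Dounce replicate 4, and -0.25 over the 5 with at least 10 counts in every library, of which 1 was called lower and 1 higher. Cxcl12, a chemokine made mainly by vascular and stromal cells, had the largest fall and was counted at 1.07, 3.39, 2.98 and 0 CPM in Dounce-TRAP and at 180.0, 86.3, 93.2 and 59.6 CPM in Cell-TRAP. Cell-TRAP with inhibitors held it at 129 ± 45.01 CPM (SD, n = 4), unlike Ccl3 at 14.1 ± 4.28 CPM (SD, n = 4). Cx3cl1, the neuronal ligand of Cx3cr1, was the 1 chemokine called higher and was counted at 101, 226, 348 and 93.7 CPM in Dounce-TRAP and at 43.2, 28.2, 27.5 and 17.8 CPM in Cell-TRAP (log2 fold change 2.71 ± 0.36 SE, adjusted p = 6.29e-06).

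Tnf (Entrez gene 21926, chromosome 17, 35199391 to 35201996), a leading inflammatory cytokine of macrophages, was counted at 1.07, 0.599, 0.745 and 8.63 CPM in Dounce-TRAP and at 76.8, 57.2, 107 and 106 CPM in Cell-TRAP. Dounce replicate 4 stood above the other 3 Dounce libraries, and all 4 lay below Cell-TRAP (log2 fold change -5.03 ± 0.51 SE, adjusted p = 1.93e-07, -6.76 without Dounce replicate 4 and -5.97 on the authors' log2 values). Il1b (Entrez gene 16176, chromosome 2, 129364580 to 129371120), the precursor of interleukin-1β, was counted at 4.53, 4.99, 0 and 2.38 CPM in Dounce-TRAP and at 50.8, 39.2, 99.6 and 196 CPM in Cell-TRAP (log2 fold change -4.88 ± 0.58 SE, adjusted p = 1.55e-06). Cell-TRAP replicate 4 was highest, and without it the log2 fold change was -4.29, and -5.75 on the authors' log2 values with all libraries. Of the cytokines, 6 of 13 tested members were called lower, 0 higher and 7 neither, with a median log2 fold change of -0.93. Of the 6 with at least 10 counts in every library, 2 were called lower. With scaling to the microglial markers, or without Cell-TRAP replicate 4 or Dounce replicate 2, 1 was called higher. Tnf, Il1a, Il1b, Il6, Il10 and Osm were called lower. Tgfb1, which maintains homeostatic microglia and had the most counts of the list, was not called (-0.52 ± 0.09 SE). Of the Socs and Jak-Stat feedback genes, 3 of 11 tested members were called lower, 0 higher and 8 neither, with a median log2 fold change of -0.42, which turned to 0.10 with scaling to the microglial markers (1 higher and 3 lower). Of the 6 with at least 10 counts in every library, 1 was called lower. Socs3, an inhibitor of cytokine receptors, led the 3 that fell and was counted at 21.9, 13.6, 12.3 and 15.2 CPM in Dounce-TRAP and at 397, 458, 543 and 690.3 CPM in Cell-TRAP (log2 fold change -5.05 ± 0.19 SE, adjusted p = 3.02e-12).

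Hspa1a (Entrez gene 193740, chromosome 17, 34969359 to 34972156), the inducible cytosolic Hsp70, was counted at 2.13, 16.4, 1.86 and 2.38 CPM in Dounce-TRAP and at 170.0, 147, 147 and 198 CPM in Cell-TRAP. Dounce replicate 2 stood above the other 3 Dounce libraries and below every Cell-TRAP library (log2 fold change -4.69 ± 0.58 SE, adjusted p = 2.64e-06, -6.26 without Dounce replicate 2 and -5.63 on the authors' log2 values). Hspa1a is nearly identical to Hspa1b, so that the split of reads between these genes is uncertain. Hspa8, the constitutive Hsc70, was counted at 804, 1052, 688 and 687 CPM in Dounce-TRAP and at 1953, 1994, 2076 and 2691 CPM in Cell-TRAP (log2 fold change -1.43 ± 0.13 SE, adjusted p = 5.51e-08), and its call was lost with scaling to the microglial markers. Of the heat shock proteins, 5 of 16 tested members were called lower, 0 higher and 11 neither. Their median log2 fold change was -0.61. With scaling to the microglial markers it was -0.08, and 4 were called lower. Of the 13 with at least 10 counts in every library, 2 were called lower. Hspb1, which encodes Hsp27 and is also made by endothelial cells, had the largest fall and was counted at 1.07, 0.399, 0 and 1.79 CPM in Dounce-TRAP and at 47.9, 29.1, 38.9 and 19.9 CPM in Cell-TRAP (log2 fold change -5.36 ± 0.53 SE, adjusted p = 1.45e-07, and -5.99 without Dounce replicate 4). In Cell-TRAP with inhibitors Hspb1 stood at 27.7 ± 7.55 CPM and Hspa1a at 7.81 ± 3.72 CPM (SD, n = 4 each).

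Of the integrated stress response genes, 5 of 12 tested members were called lower, 0 higher and 7 neither, with a median log2 fold change of -0.93. With scaling to the microglial markers 1 was called lower and 2 higher (median -0.42). Of the 9 with at least 10 counts in every library, 3 were called lower. By DESeq2's Wald test, and without Cell-TRAP replicate 2 or Dounce replicate 2, 3 or 4, 1 was called higher. Ppp1r15a, which encodes GADD34 and reverses the phosphorylation of eIF2α, was counted at 21.3, 15.8, 43.2 and 12.5 CPM in Dounce-TRAP and at 184, 171, 227 and 292 CPM in Cell-TRAP (log2 fold change -3.27 ± 0.27 SE, adjusted p = 1.71e-08). Atf4, the central factor of this response, was not called (-0.49 ± 0.09 SE). Of the oxidative stress and metallothionein genes, 6 of 16 tested members were called lower, 0 higher and 10 neither. Their median log2 fold change was -0.88. With scaling to the microglial markers it was -0.36, and 3 were called lower. Ptgs2, the inducible prostaglandin synthase, was counted at 1.87, 1.198, 1.49 and 2.38 CPM in Dounce-TRAP and at 7.87, 2.85, 13.6 and 21.9 CPM in Cell-TRAP, and Sqstm1, the autophagy receptor p62, had log2 fold change -1.09 ± 0.09 SE and lost its call with scaling to the microglial markers and among genes with at least 10 counts in every library. Of the p53 and growth arrest genes, 5 of 15 tested members were called lower, 1 higher and 9 neither, with a median log2 fold change of -0.21, which turned to 0.30 with scaling to the microglial markers (3 lower). Of the 12 with at least 10 counts in every library, 3 were called lower. Gadd45b, a stress-induced regulator of MAP kinases, was counted at 2.13, 4.39, 6.71 and 1.19 CPM in Dounce-TRAP and at 25.5, 18.6, 27.3 and 73.6 CPM in Cell-TRAP (log2 fold change -3.35 ± 0.46 SE, adjusted p = 8.26e-06, and -2.75 without Cell-TRAP replicate 4). Mdm2, the ubiquitin ligase that p53 induces and that degrades p53, was the 1 member called higher and was counted at 165, 109, 188 and 126 CPM in Dounce-TRAP and at 61.4, 68.7, 66.1 and 61.9 CPM in Cell-TRAP (log2 fold change 1.18 ± 0.14 SE, adjusted p = 1.59e-06).

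In Cell-TRAP, replicate 4 had the highest sum of all 12 lists from the AP-1 and ATF factors to the p53 and growth arrest genes. Replicates 3 and 4 were both above 1 and 2 in 9 of them, and not in the MAP kinase, integrated stress response and p53 lists. The Ier, Btg, Klf and Zfp36 genes summed to 13906, 15709, 18207 and 21106 CPM in Cell-TRAP and 3765, 3851, 3094 and 3524 CPM in Dounce-TRAP. The NF-κB list summed to 2407, 2436, 3216 and 4313 CPM in Cell-TRAP and 1014, 1018, 759.9 and 1076 CPM in Dounce-TRAP. Xist, the RNA of the inactive X chromosome that marks female cells, was counted at 7.73, 6.79, 250.5 and 188 CPM in Dounce-TRAP and at 0.213, 0.158, 50.3 and 15.6 CPM in Cell-TRAP, high in replicates 3 and 4 of each group and low in replicates 1 and 2. Replicates 3 and 4 of Cell-TRAP were also the mice with 4-digit numbers. The labels name no cohort, so that sex and anything these numbers stand for cannot be told apart there.

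Promoters were read for the early-response genes because most were called lower. Of the 63 tested members of the lists of AP-1 and ATF, Egr and Nr4a, Ier to Zfp36, MAP kinase feedback and NF-κB genes, 36 were called lower, and 29 of these 36 had a promoter in the RefSeq-based table (GRCm38.p6, 250 bases before to 50 after the gene start). TATAAA was present in 6 of the 29 (20.7%), against 7.36% of the 11623 promoters matched to all genes tested. The kB motif was present in 9 (31.03%), against 10.3% of all, and the cyclic AMP element TGACGTCA in 2 (6.897%), against 3.12%. Nfkbia, Tnfaip3 and Bcl3 of the NF-κB list are among the 9, so that the kB share depends on the choice of lists. The AP-1 motif TGANTCA was present in 2 (6.897%, all genes 4.96%), the CArG box in 1 (3.45%, all genes 1.32%) and the heat shock element core GAANNTTC in 3 (10.3%, all genes 5.64%). Of the members of these lists that were not called, 21 were matched, 5 of them with the kB motif and 4 with TATAAA, and of the 3 called higher 1 had a CArG box and 1 TGACGTCA. Of the 4 matched promoters of heat shock genes called lower, 3 held GAANNTTC, 2 of them the near-identical promoters of Hspa1a and Hspa1b, against 4 of 8 of heat shock genes not called. Over all calls the kB motif was in 12.7% of 915 promoters of genes called lower and 11.05% of 2272 of genes called higher, and TATAAA in 12.02% and 8.27%. Motifs were searched on both strands, may overlap, and describe letters only. Sites farther than 250 bases before the gene start were not searched. A motif not found here is therefore not shown to be absent from a gene.

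The promoters of 5 genes with large falls are shown with every motif found in capitals, each read 5′ to 3′ along its gene: Fos (chr12:85473640-85473939, plus strand) with a kB motif and TATAAA, Zfp36 (chr7:28379179-28379478, minus strand) with a CArG box, Dusp1 (chr17:26508423-26508722, minus strand) with TGACGTCA, Nfkbia (chr12:55492598-55492897, minus strand) with a kB motif and TATAAA, and Hspa1a (chr17:34972107-34972406, minus strand) with GAANNTTC and a kB motif.
Fos: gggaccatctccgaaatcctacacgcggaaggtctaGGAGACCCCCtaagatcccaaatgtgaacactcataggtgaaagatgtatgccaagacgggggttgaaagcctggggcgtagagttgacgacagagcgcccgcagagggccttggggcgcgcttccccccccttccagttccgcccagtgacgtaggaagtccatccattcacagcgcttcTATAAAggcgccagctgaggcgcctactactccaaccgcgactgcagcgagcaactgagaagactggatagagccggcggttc
Zfp36: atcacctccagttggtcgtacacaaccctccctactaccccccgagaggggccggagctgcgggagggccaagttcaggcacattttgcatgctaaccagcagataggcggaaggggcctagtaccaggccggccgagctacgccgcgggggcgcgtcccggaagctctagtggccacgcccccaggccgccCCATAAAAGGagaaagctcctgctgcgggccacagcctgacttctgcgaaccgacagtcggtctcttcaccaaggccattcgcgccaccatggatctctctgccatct
Dusp1: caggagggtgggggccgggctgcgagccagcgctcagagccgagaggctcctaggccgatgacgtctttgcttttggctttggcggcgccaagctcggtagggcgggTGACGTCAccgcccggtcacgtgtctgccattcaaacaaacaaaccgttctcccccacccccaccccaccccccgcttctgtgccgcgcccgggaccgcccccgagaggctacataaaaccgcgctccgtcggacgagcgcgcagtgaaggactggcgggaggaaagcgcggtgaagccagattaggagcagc
Nfkbia: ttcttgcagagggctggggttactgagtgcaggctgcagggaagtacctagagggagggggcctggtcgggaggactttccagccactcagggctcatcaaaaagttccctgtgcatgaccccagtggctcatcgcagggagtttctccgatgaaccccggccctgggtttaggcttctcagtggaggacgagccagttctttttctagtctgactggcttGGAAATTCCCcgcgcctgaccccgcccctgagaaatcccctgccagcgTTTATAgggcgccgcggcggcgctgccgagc
Hspa1a: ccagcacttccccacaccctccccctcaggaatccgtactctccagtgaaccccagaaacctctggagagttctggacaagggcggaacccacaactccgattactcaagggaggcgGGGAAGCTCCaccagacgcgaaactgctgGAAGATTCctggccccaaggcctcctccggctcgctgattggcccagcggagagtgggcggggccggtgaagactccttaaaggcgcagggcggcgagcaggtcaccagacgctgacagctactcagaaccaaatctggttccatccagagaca

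Other sets of macrophage genes were counted as well. Of the microglial transcription factors, 1 of 11 tested members was called lower (9.09%, all genes 8.03%), 0 higher (all genes 20.7%) and 10 neither. Their median log2 fold change was -0.33 (0.17 with scaling to the microglial markers). The 1 called was Cebpb, a factor induced by inflammation, counted at 108, 108, 112 and 123 CPM in Dounce-TRAP and at 236, 233, 296 and 472 CPM in Cell-TRAP (log2 fold change -1.46 ± 0.21 SE, adjusted p = 1.22e-05), and it lost its call with that scaling. None of the 10 sort antigens and pan-leukocyte genes was called by edgeR or DESeq2's Wald test and 1 by limma, and 8 had an unadjusted p under 0.05 (median -0.63). Without Cell-TRAP replicate 1 or 2 or Dounce replicate 1 or 4, 1 was called lower. Of the Toll-like receptors and adaptors, 1 of 15 tested members was called lower (6.67%, all genes 8.03%), 0 higher (all genes 20.7%) and 14 neither. Their median log2 fold change was -0.16 (0.35 with that scaling). Ticam1, the adaptor of TLR3 and TLR4, was the 1 called and was counted at 12.8, 39.5, 22.7 and 17.9 CPM in Dounce-TRAP and at 48.8, 52.9, 50.1 and 50.2 CPM in Cell-TRAP (log2 fold change -1.10 ± 0.23 SE, adjusted p = 0.000559). Its call was lost with that scaling, among genes with at least 10 counts in every library, and without Dounce replicate 1 (-0.89) or 4 (-0.99).

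Of the disease-associated microglial genes, 5 of 19 tested members were called lower, 1 higher and 13 neither, with a median log2 fold change of -0.50 (0.03 with scaling to the microglial markers, 3 lower). Of the 17 with at least 10 counts in every library, 3 were called lower, and without Cell-TRAP replicate 4 or Dounce replicate 2 as many. Lpl, the lipoprotein lipase, was the 1 called higher and was counted at 301, 151, 275 and 189 CPM in Dounce-TRAP and at 85.3, 35.99, 41.7 and 155 CPM in Cell-TRAP, with Cell-TRAP replicate 4 inside the Dounce range (log2 fold change 1.53 ± 0.42 SE, adjusted p = 0.0049). Its level was 702 ± 316 CPM in Dounce-Input and 26.6 ± 11.8 CPM in Cell-Input (SD, n = 4 each). Spp1, Itgax, Fth1, Gpnmb and Lgals3 were called lower. Gpnmb, a lysosomal glycoprotein, was counted at 3.199, 0.798, 0 and 0 CPM in Dounce-TRAP and at 5.17, 0.870, 3.26 and 38.4 CPM in Cell-TRAP, and lost its call without Cell-TRAP replicate 4 (-1.54) or Dounce replicate 2 (-3.31), 3 (-3.15) or 4 (-3.08), with -5.03 without Dounce replicate 1. Of the interferon-stimulated genes, 2 of 16 tested members were called lower (12.5%, all genes 8.03%), 1 higher (6.25%, all genes 20.7%) and 13 neither. Their median log2 fold change was -0.70. Ifit1, which binds foreign RNA caps, was the 1 called higher (1.05 ± 0.36 SE). Its call was lost on the authors' log2 values and without Cell-TRAP replicate 2 (0.84) or Dounce replicate 3 (0.74). Ifitm3, a membrane protein that blocks virus entry, had the largest fall (-1.40 ± 0.22 SE), and with scaling to the microglial markers 0 of the list were called lower and 2 higher. On the authors' log2 values 7 were called lower and 0 higher, and with DESeq2's size factors, its Wald test or no filter 5 lower. With 1 library left out, 6 were called lower without Cell-TRAP replicate 2, and 4 each without Cell-TRAP replicate 1 or Dounce replicate 2, 3 or 4.

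None of the 10 genes of border-associated macrophages was called by edgeR, DESeq2's Wald test or limma, or had an unadjusted p under 0.05 (median 0.04, -0.12 on the authors' log2 values). Scaled to the microglial markers, the median was 0.57, and 1 member was called higher. The median was -0.11 without Cell-TRAP replicate 2, -0.02 without Dounce replicate 1 and -0.09 without Dounce replicate 2. Mrc1, the mannose receptor, was counted at 774, 1065, 541 and 432 CPM in Dounce-TRAP and at 488, 334, 525 and 883 CPM in Cell-TRAP, and Cd163, the haptoglobin-hemoglobin receptor, at 146, 209, 136 and 89.6 CPM in Dounce-TRAP and at 142, 94.04, 167 and 192 CPM in Cell-TRAP. In both genes the groups overlapped, and Dounce replicate 2 was the highest of its group. Of 14 blood cell genes listed 5 were tested, of which Ccr2 was called higher and Ly6c2 lower (median 0.47). Without Cell-TRAP replicate 1 the median was 1.37, with 3 called higher and 1 lower, and without Dounce replicate 1 it was 0.15, with 0 higher. With no filter on counts, 3 of 12 were called higher and 2 lower (median 1.06). With scaling to the microglial markers 2 were called higher, and 0 of the 2 with at least 10 counts in every library. Hba-a1, an α-globin nearly identical to Hba-a2, was counted at 413, 241, 223 and 161 CPM in Dounce-TRAP and at 462, 106, 87.03 and 93.3 CPM in Cell-TRAP. Cell-TRAP replicate 1 stood above the rest of its group, and without it Hba-a1 was called higher (1.44). Hbb-bs, S100a8 and S100a9 were not tested.

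Most neuronal genes were higher in Dounce-TRAP. Snap25 (Entrez gene 20614, chromosome 2, 136713450 to 136782428), a SNARE protein of synaptic vesicle fusion, was counted at 383, 374, 366 and 326 CPM in Dounce-TRAP and at 53.2, 22.5, 30.2 and 24.004 CPM in Cell-TRAP. Every Dounce library was above every Cell-TRAP library (log2 fold change 3.48 ± 0.33 SE, adjusted p = 9.32e-08). Slc17a7 (Entrez gene 72961, chromosome 7, 45163921 to 45176139), the vesicular glutamate transporter VGLUT1, was counted at 333, 276, 618 and 254 CPM in Dounce-TRAP and at 27.2, 7.67, 8.28 and 15.2 CPM in Cell-TRAP (log2 fold change 4.65 ± 0.43 SE, adjusted p = 6.17e-08). Its level in Tissue-TRAP was 1479.7 ± 352 CPM (SD, n = 4), above both. Of the neuronal and synaptic genes, 17 of 19 tested were called higher and 0 lower, with a median of 2.98. The list summed to 2609, 2621, 3712 and 2169 CPM in Dounce-TRAP and 386, 194, 239.9 and 197 CPM in Cell-TRAP, with Camk2a, a kinase of the postsynaptic density, at the top of both. Dounce replicate 3 had the highest sum. The defining neuronal markers Rbfox3 and Gad1 were above 0 in every library of both groups. Rbfox3, which encodes NeuN, was counted at 175, 167, 229 and 134 CPM in Dounce-TRAP and at 9.43, 2.61, 5.104 and 4.37 CPM in Cell-TRAP, and Gad1, the GABA-synthesizing enzyme, at 43.2, 43.5, 57.4 and 49.997 CPM in Dounce-TRAP and at 30.8, 18.98, 19.3 and 16.003 CPM in Cell-TRAP.

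The neuronal markers of the study gave 84 called higher and 1 lower of 96 tested (median 2.84), and summed to 7371 ± 1932 CPM in Dounce-TRAP, 624 ± 216 CPM in Cell-TRAP and 22654 ± 1115 CPM in Tissue-TRAP (SD, n = 4 each). They summed to 24590 ± 1158 CPM in Dounce-Input and 3211 ± 675 CPM in Cell-Input (SD, n = 4 each). By flow cytometry, the study found a larger share of neurons, and smaller shares of microglia and astrocytes, in Dounce-Input than in Cell-Input. The 1 neuronal marker called lower was Ndnf (-1.09 ± 0.41 SE). Its call was lost with scaling to the microglial markers and, at about the same fold change (-1.09), with only the 8 compared libraries fitted. It was also lost without Cell-TRAP replicate 1 (-0.94) or Dounce replicate 3 (-0.98) or 4 (-0.78), and the value was -1.81 without Dounce replicate 2. Of the 50 neuronal markers with at least 10 counts in every library, 47 were called higher and 0 lower, and 3 were called lower on the authors' log2 values and 2 without Dounce replicate 1 or 2. Grin2b, a subunit of the NMDA receptor, had the largest rise of the neuronal and synaptic list and was counted at 20.5, 26.7, 35.03 and 18.2 CPM in Dounce-TRAP and at 0.213, 0.554, 0.251 and 0.495 CPM in Cell-TRAP (log2 fold change 6.01 ± 0.39 SE, adjusted p = 9.42e-10).

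Some oligodendrocyte genes rose. Mog (Entrez gene 17441, chromosome 17, 37010740 to 37023398), a myelin surface protein, was counted at 41.9, 49.7, 145 and 49.7 CPM in Dounce-TRAP and at 17.8, 3.56, 6.36 and 7.01 CPM in Cell-TRAP, with Dounce replicate 3 above the others (log2 fold change 3.02 ± 0.43 SE, adjusted p = 1.34e-05, 2.43 without Dounce replicate 3 and 3.65 without Cell-TRAP replicate 1). Mbp, the myelin basic protein, was counted at 354, 281, 385 and 309.5 CPM in Dounce-TRAP and at 572, 133, 330.2 and 227 CPM in Cell-TRAP and was not called (0.07 ± 0.30 SE). Of the oligodendrocytic and progenitor genes, 0 of 18 tested members were called lower, 8 higher and 10 neither, with a median log2 fold change of 0.61. The list summed to 4111, 3599, 4512 and 3904 CPM in Dounce-TRAP and 4393, 3444, 3531 and 3396 CPM in Cell-TRAP. Trf, which encodes transferrin, took the most counts of it and was not called (-0.38 ± 0.08 SE). Of the authors' oligodendrocytic markers, 100 of 192 tested were called higher and 9 lower (median 1.22). Scaled to the microglial markers, 2 were called lower, without Cell-TRAP replicate 1 there were 5, without Dounce replicate 3 there were 4, and 2 of the 147 with at least 10 counts in every library.

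Of the astrocytic genes, 8 of 16 tested members were called lower, 1 higher and 7 neither, with a median log2 fold change of -0.97. Scaled to the microglial markers, 4 were called lower and 1 higher (median -0.48). Gja1, the gap junction protein connexin 43, was counted at 23.7, 28.1, 14.9 and 22.3 CPM in Dounce-TRAP and at 202, 137, 117 and 86.9 CPM in Cell-TRAP (log2 fold change -2.58 ± 0.24 SE, adjusted p = 6.1e-08). Slc1a2, the glutamate transporter GLT-1, was the 1 called higher and was counted at 2909.8, 2289, 1164 and 1635 CPM in Dounce-TRAP and at 689.9, 679.6, 568 and 449.9 CPM in Cell-TRAP (log2 fold change 1.74 ± 0.24 SE, adjusted p = 9e-06). Gfap and Aqp4, the intermediate filament and the water channel of astrocytes, were not called (-0.35 ± 0.39 SE and -0.75 ± 0.21 SE). The list summed to 6670.4, 5692, 4361 and 4696 CPM in Dounce-TRAP and 7487, 6791, 6608 and 6410.5 CPM in Cell-TRAP, with the most counts taken by Slc1a2 in Dounce-TRAP and by Glul, a glutamine synthetase that microglia express too, in Cell-TRAP. Glul fell (-1.03 ± 0.07 SE), and its call was lost with scaling to the microglial markers, among genes with at least 10 counts in every library and without Cell-TRAP replicate 4 (-0.99). Of the authors' astrocytic markers, 48 of 138 were called lower and 17 higher (median -0.63), and 28 lower and 22 higher with that scaling (median -0.14). Of the 91 with at least 10 counts in every library, 22 were lower and 14 higher. They summed to 16039, 14001, 12207 and 11836 CPM in Dounce-TRAP and 15410.1, 11175, 12879 and 13153 CPM in Cell-TRAP, with overlap.

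Most endothelial genes were lower in Dounce-TRAP. Cldn5 (Entrez gene 12741, chromosome 16, 18776847 to 18778262), the tight junction protein of the blood-brain barrier, was counted at 0, 8.18, 16.8 and 6.84 CPM in Dounce-TRAP and at 264, 137, 158 and 96.6 CPM in Cell-TRAP. The highest Dounce library was far below the lowest Cell-TRAP library (log2 fold change -4.44 ± 0.50 SE, adjusted p = 7.81e-07, and -5.68 on the authors' log2 values). Flt1 (Entrez gene 14254, chromosome 5, 147562196 to 147725988), the VEGF receptor 1, was counted at 0.7998, 2.79, 0 and 0 CPM in Dounce-TRAP and at 259, 157, 169 and 118 CPM in Cell-TRAP (log2 fold change -7.27 ± 0.43 SE, adjusted p = 2.82e-10, -9.11 without Dounce replicate 2 and -8.77 on the authors' log2 values). Of the endothelial genes, 15 of 16 tested members were called lower, 0 higher and 1 neither, with a median log2 fold change of -4.41. Only 3 had at least 10 counts in every library, and 2 of these were called lower (median -1.32). The list summed to 584, 608, 748 and 606 CPM in Dounce-TRAP and 3575, 2372, 2435 and 1778 CPM in Cell-TRAP. Bsg, a membrane glycoprotein that many cell types make, took the most counts in both and was the 1 not called (-0.81 ± 0.15 SE). Of the authors' endothelial markers, 154 of 230 tested were called lower and 5 higher (median -1.66), and 71 were not called. Of the 94 with at least 10 counts in every library, 39 were called lower (median -0.72). The median was -2.38 on the authors' log2 values, and with scaling to the microglial markers 13 were called higher and 120 lower. The endothelial markers summed to 7321, 7589, 6629.9 and 7451 CPM in Dounce-TRAP and 18412, 15033, 16057 and 13449 CPM in Cell-TRAP. Their sum was 6403 ± 305 CPM in Tissue-TRAP, 5991 ± 211 CPM in Dounce-Input and 20965 ± 2051 CPM in Cell-Input (SD, n = 4 each).

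Several of the 10 genes with the largest falls, among called genes with at least 20 CPM in the higher group and no overlap, were vascular too. Sox18, an endothelial transcription factor, had 0 counts in all 4 Dounce libraries and 43.6, 19.6, 29.4 and 10.5 CPM in Cell-TRAP, at least 130.2-fold against a floor of 3 counts, and at least 86.1-fold without Dounce replicate 2. Tie1, an endothelial receptor kinase, had 1 count in all of Dounce-TRAP and 75.7, 43.7, 48.7 and 24.7 CPM in Cell-TRAP, a ratio of 728-fold (95% interval of the counts 131 to 28784), and without Dounce replicate 3, which held that count, at least 199-fold, and 482-fold without Dounce replicate 2. Eltd1, an endothelial adhesion receptor, had 2 counts in Dounce-TRAP and 109, 63.5, 72.2 and 48.01 CPM in Cell-TRAP, a ratio of 551-fold (95% interval of the counts 152 to 4552), and without Dounce replicate 2, which held both, at least 243-fold. These intervals and floors cover counting error only. Apcdd1, a Wnt inhibitor, had a ratio of 199.7-fold (95% interval of the counts 55.2 to 1650.4), and at least 109-fold without Dounce replicate 3, which held both of its 2 Dounce counts, and 132-fold without Dounce replicate 2. Wfdc1, a secreted protease inhibitor, had a ratio of 117-fold (95% interval of the counts 39.9 to 568), and 262-fold without Dounce replicate 1. Ly6c1, a surface protein of endothelial cells nearly identical to Ly6c2, was counted at 0, 0.399, 4.0997 and 0 CPM in Dounce-TRAP and at 173, 96.7, 113 and 61.5 CPM in Cell-TRAP (log2 fold change -6.94 ± 0.56 SE, adjusted p = 1.1e-08, -9.30 without Dounce replicate 3 and -8.20 on the authors' log2 values). Fos, Fosb, Egr1 and Flt1 made up the 10. Sox18 stood at 25.1 ± 7.14 CPM and Tie1 at 52.1 ± 9.54 CPM in Cell-TRAP with inhibitors (SD, n = 4 each).

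Of the pericyte and smooth muscle genes, 7 of 12 tested members were called lower, 0 higher and 5 neither, with a median log2 fold change of -1.31. Scaled to the microglial markers, 5 were called lower and 2 higher, and without Dounce replicate 1 there were 6 lower and 1 higher. The median was -1.90 on the authors' log2 values, and -0.60 over the 3 with at least 10 counts in every library, of which 1 was called lower. Rgs5, a pericyte regulator of G protein signals, had 2 counts in all of Dounce-TRAP and 17.9, 17.2, 19.7 and 6.19 CPM in Cell-TRAP, a ratio of 114-fold (95% interval of the counts 31.4 to 941), 75.3-fold without Dounce replicate 2 and 176-fold without Dounce replicate 4. All 10 ependymal and choroid plexus genes were called lower (median -3.55, or -3.27 with the 2 genes at 0 in every Dounce library set to their bound). Only 1 of them had at least 10 counts in every library, and it was called lower. Ttr, the thyroid hormone carrier that the choroid plexus secretes, was counted at 6.66, 35.5, 26.5 and 22.6 CPM in Dounce-TRAP and at 441, 276, 308 and 319 CPM in Cell-TRAP (log2 fold change -3.87 ± 0.54 SE, adjusted p = 9.27e-06), and its level was 133 ± 21.04 CPM in Dounce-Input and 7978 ± 1727 CPM in Cell-Input (SD, n = 4 each). The pericyte list summed to 42.9, 47.5, 76.4 and 40.2 CPM in Dounce-TRAP and 184, 118, 142 and 89.2 CPM in Cell-TRAP. The ependymal list summed to 25.6, 40.3, 30.2 and 31.5 CPM in Dounce-TRAP and 538, 327, 384 and 375 CPM in Cell-TRAP. The part of RNA from other cell types in the calls was not tested.

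**Figure D3:**
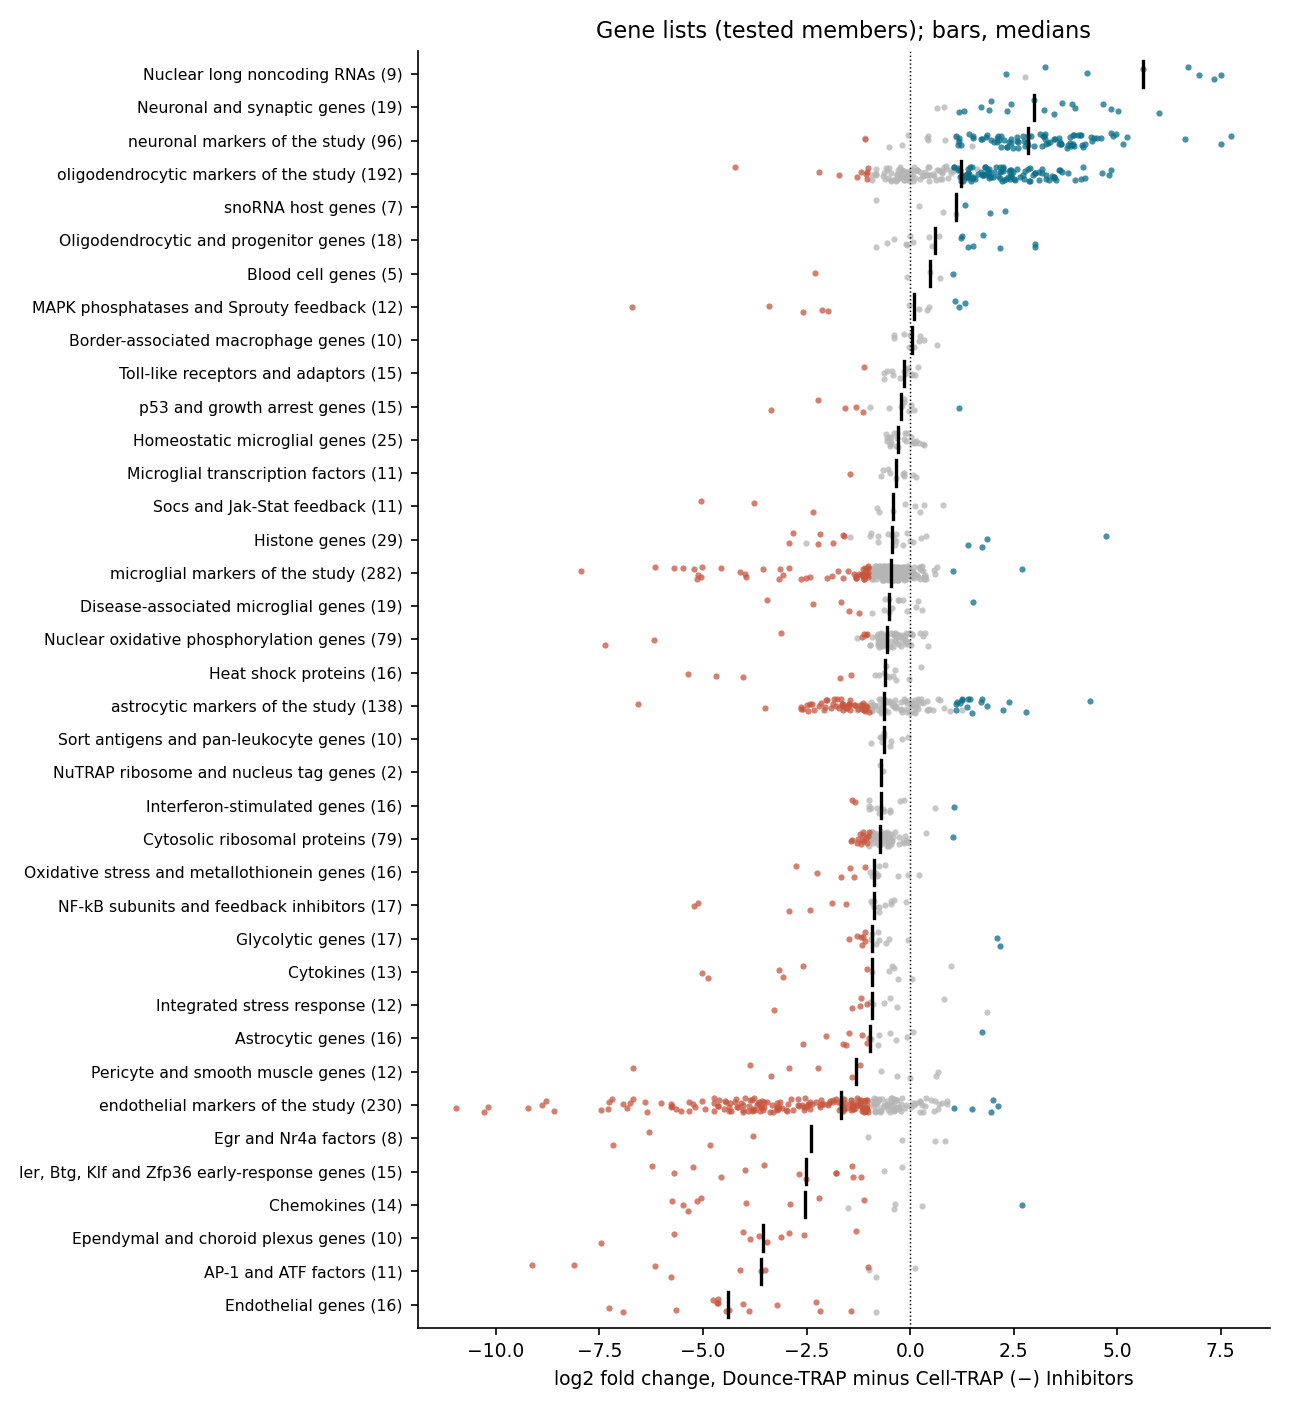
Log2 fold change, Dounce-TRAP minus Cell-TRAP (-) Inhibitors, of each tested member of the gene lists, in order of the list medians (bars), with the number tested in parentheses. Points are coloured as called higher (blue), called lower (red) or neither (grey), and the dotted line is the median of all genes tested. Long noncoding and neuronal genes lie to the right, and endothelial, AP-1 and ependymal genes to the left. The medians of microglial, homeostatic, disease-associated, transcription factor, Toll-like, Socs, p53 and histone genes lie left of 0 here and right of it with scaling to the microglial markers.

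Nuclear long noncoding RNAs had the highest median of all lists. Meg3 (Entrez gene 17263, chromosome 12, 109540996 to 109571729), an imprinted noncoding RNA of neurons, was counted at 3664, 3268, 6099 and 3902 CPM in Dounce-TRAP and at 37.2, 10.5, 46.2 and 10.9 CPM in Cell-TRAP. The lowest Dounce library was far above the highest Cell-TRAP library (log2 fold change 7.33 ± 0.56 SE, adjusted p = 6.08e-09). Its level was 16.5 ± 7.48 CPM in Cell-TRAP with inhibitors and 1096 ± 555 CPM in Tissue-TRAP (SD, n = 4 each), and 18294 ± 2328 CPM in Dounce-Input and 119 ± 85.8 CPM in Cell-Input (SD, n = 4 each). Snhg11, a noncoding RNA of neurons, was counted at 2034, 2082, 3119 and 2125 CPM in Dounce-TRAP and at 17.4, 5.69, 20.6 and 7.42 CPM in Cell-TRAP (log2 fold change 7.51 ± 0.53 SE, adjusted p = 2.38e-09), with Dounce replicate 3 above the others. Malat1 (Entrez gene 72289, chromosome 19, 5795690 to 5802671), an abundant RNA of nuclear speckles, was counted at 439, 443, 604 and 509 CPM in Dounce-TRAP and at 142, 74.03, 125 and 55.3 CPM in Cell-TRAP (log2 fold change 2.33 ± 0.36 SE, adjusted p = 2.88e-05), and its level was 4138 ± 745 CPM in Dounce-Input and 466 ± 295 CPM in Cell-Input (SD, n = 4 each). Of the 9 tested members, 8 were called higher and 0 lower, with a median log2 fold change of 5.62. The 1 not called was Xist, named here after its values were seen. Every Dounce library was above every Cell-TRAP library within replicates 1 and 2 and within replicates 3 and 4, and the fit had no term for sex. With scaling to the microglial markers 9 of the 9 were called higher. The list summed to 8505, 8495, 13579 and 9566 CPM in Dounce-TRAP and 354, 189, 414 and 236 CPM in Cell-TRAP.

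The other genes with the largest rises by the same rule were, by that choice, low in Cell-TRAP next to Dounce-TRAP. All 10 genes of the rule had higher means in Dounce-Input than in Dounce-TRAP, and no share over all genes is given for comparison. Trank1, a gene of neurons, was counted at 472, 702, 554 and 476 CPM in Dounce-TRAP and at 3.54, 1.03, 3.77 and 1.81 CPM in Cell-TRAP (log2 fold change 7.75 ± 0.40 SE, adjusted p = 4.78e-11), and its level was 1722 ± 301 CPM in Dounce-Input and 9.57 ± 3.401 CPM in Cell-Input (SD, n = 4 each). Pigr, the epithelial receptor for polymeric immunoglobulin, was counted at 150.1, 97.8, 342 and 154 CPM in Dounce-TRAP and at 1.28, 0.554, 1.34 and 0.495 CPM in Cell-TRAP (log2 fold change 7.63 ± 0.43 SE, adjusted p = 2.05e-10), and its level was 436 ± 256 CPM in Dounce-Input and 6.23 ± 2.57 CPM in Cell-Input (SD, n = 4 each). Tissue-TRAP held Pigr at 2.61 ± 1.04 CPM (SD, n = 4), near Cell-TRAP. Gcm1, a factor of placental trophoblast, had 21.6, 11.8, 31.7 and 22.02 CPM in Dounce-TRAP and 3 counts in all of Cell-TRAP, a ratio of 342-fold (95% interval of the counts 116 to 1669), and 742-fold without Cell-TRAP replicate 1. Barhl2, a homeodomain factor of neurons, had 21.9, 18.8, 51.4 and 12.5 CPM in Dounce-TRAP, a ratio of 244-fold (95% interval of the counts 104 to 757). Cntn6, a neural adhesion protein, had 18.1, 29.7, 27.2 and 34.2 CPM, a ratio of 232-fold (95% interval of the counts 106 to 635). The noncoding gene 9530036O11Rik, whose span overlaps Shh, had 19.7, 18.96, 43.6 and 31.8 CPM in Dounce-TRAP and 0 counts in Cell-TRAP, at least 449.8-fold. Gm5415, within the span of Khdrbs2, was counted at 36.5, 24.8, 22.7 and 24.4 CPM in Dounce-TRAP and at 0.283, 0.158, 0 and 0 CPM in Cell-TRAP, and 4932411N23Rik had 9.86, 18.6, 46.96 and 19.6 CPM in Dounce-TRAP, a ratio of 184-fold (95% interval of the counts 83.7 to 506).

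Of the snoRNA host genes, 0 of 7 tested members were called lower, 3 higher and 4 neither, with a median log2 fold change of 1.11. Scaled to the microglial markers, 5 were called higher, and 1 of the 3 with at least 10 counts in every library. Gas5, a host of box C/D snoRNAs whose spliced RNA is degraded when translated, was counted at 49.6, 38.1, 54.4 and 46.4 CPM in Dounce-TRAP and at 19.6, 17.5, 17.9 and 20.04 CPM in Cell-TRAP (log2 fold change 1.32 ± 0.16 SE, adjusted p = 1.41e-06). Of 571 tested genes that the table types as other RNA, 288 (50.4%) were called higher and 23 lower (median 1.35). Of 14072 protein-coding genes, 2724 (19.4%) were called higher and 1154 lower (median -0.04). Shares at low abundance depend on the filter on counts, and 411 of the other RNAs were in the lowest quartile of mean CPM, where 47.9% of them and 33.3% of the protein-coding genes were called higher. With at least 10 counts in every library these shares were 54.4% of 125 and 14.6% of 10105. This split by gene type was added after the data were seen.

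Of 79 cytosolic ribosomal protein genes, 14 were called lower (17.7%, against 8.03% of all genes) and 1 higher (median -0.72), and 0 were called lower with scaling to the microglial markers (median -0.21). On the authors' log2 values, 27 were called lower and 0 higher. They summed to 7027, 6191, 6884 and 6041 CPM in Dounce-TRAP and 10380.2, 11028, 10455 and 13425 CPM in Cell-TRAP, without overlap. Rpl37 had the largest fall (-1.43 ± 0.16 SE), and Rps27l, a ribosomal protein paralog that p53 induces, was the 1 called higher (1.04 ± 0.24 SE). Rpl37 lost its call with that scaling, and Rps27l on the authors' log2 values and without Cell-TRAP replicate 4 (0.99) or Dounce replicate 3 (0.67). Of 79 nuclear genes of oxidative phosphorylation, 7 were called lower (8.86%) and 0 higher (median -0.55). With scaling to the microglial markers 3 were called lower (median -0.05), and 1 was called lower among genes with at least 10 counts in every library. On the authors' log2 values, 11 were called lower. Atp5b, the β subunit of ATP synthase, was among the 7 (-1.08 ± 0.08 SE). Its call was lost with scaling to the microglial markers and among genes with at least 10 counts in every library. Of the glycolytic genes, 7 of 17 tested members were called lower, 2 higher and 8 neither, with a median log2 fold change of -0.91 (41.2% lower), and 0 were called lower with scaling to the microglial markers (median -0.41). Pkm, the pyruvate kinase, was counted at 414, 377, 361 and 379 CPM in Dounce-TRAP and at 840.2, 765, 815 and 812 CPM in Cell-TRAP (log2 fold change -1.08 ± 0.08 SE, adjusted p = 6.62e-09). Its call was lost with that scaling and among genes with at least 10 counts in every library. Eno2, the neuronal enolase, rose and was counted at 65.8, 47.9, 108 and 56.5 CPM in Dounce-TRAP and at 26.2, 8.94, 14.7 and 11.3 CPM in Cell-TRAP (log2 fold change 2.16 ± 0.33 SE, adjusted p = 2.21e-05). The other glycolytic gene called higher was Pfkp.

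Of 29 histone genes, 7 were called lower and 4 higher (median -0.43, 0.07 with scaling to the microglial markers). Of the 12 with at least 10 counts in every library, 2 were called lower and 0 higher. Hist1h1c, a linker histone, was counted at 34.1, 21.8, 29.8 and 31.2 CPM in Dounce-TRAP and at 161, 179, 239 and 309 CPM in Cell-TRAP (log2 fold change -2.93 ± 0.20 SE, adjusted p = 1.6e-09), and stood at 34.1 ± 5.19 CPM in Cell-TRAP with inhibitors and 21.2 ± 2.37 CPM in Tissue-TRAP (SD, n = 4 each). Hist4h4, a core histone H4 gene, was counted at 11.2, 31.1, 23.5 and 40.5 CPM in Dounce-TRAP and at 1.35, 0.949, 0.586 and 1.07 CPM in Cell-TRAP (log2 fold change 4.72 ± 0.44 SE, adjusted p = 7.91e-08). The libraries were selected for poly(A), which most histone RNAs lack. The genes of the tagged proteins, Rpl10a and Rangap1, were not called by edgeR, DESeq2's Wald test or limma, and both had an unadjusted p under 0.05 (-0.74 ± 0.12 SE and -0.65 ± 0.16 SE). Whether their reads include RNA of the transgene cannot be told from the table.

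Calls were spread unevenly over abundance and gene span. Genes of low abundance entered the test only through a group in which every library had over 5 counts, and the Dounce libraries were shallower, so that the shares at low abundance depend on this filter. In the lowest quartile of mean CPM, 34.8% of genes were called higher and 13.7% lower (median 0.52), and in the highest quartile 6.56% and 6.34% (median -0.29). In the quartile of genes with the longest genomic span, from 54753 bases, 28.9% were called higher and 6.697% lower (median 0.15). The quartile with the shortest span, up to 8968 bases, had 18.5% called higher and 11.2% lower (median -0.10). Among genes above the median abundance the longest quartile had 15.6% called higher and the shortest 6.49%. The longest annotated transcript was matched for 14160 genes, and 14.3% were called higher in its lowest quartile and 24.1% in its highest. The part of RNA quality, depth and neuronal RNA in these shares was not tested.

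**Figure D4:**
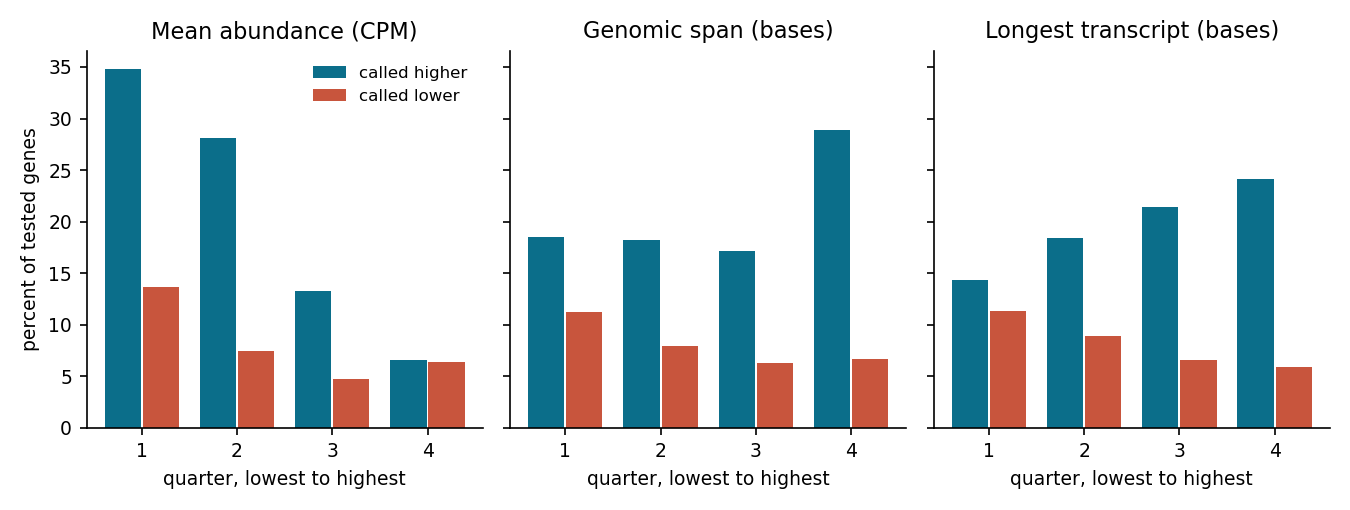
Percent of tested genes called higher (blue) and lower (red) in Dounce-TRAP in each quartile of mean CPM, genomic span and longest annotated transcript. Calls of higher genes are most frequent at low abundance and in the longest genes, where 34.8% and 28.9% were called higher, and the shares at low abundance depend on the filter on counts.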

How the data were processed

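RNA-seq libraries of positive TRAP fractions were compared between 4 Dounce and 4 enzymatic preparations, and members and lists were chosen with earlier results of these data known. The authors sequenced stranded poly(A) libraries, aligned and counted them in Strand NGS 4.0 on mm10 without duplicate reads, and deposited expected counts and log2 values normalized with DESeq2 and baselined to the Tissue-Input median. Expected counts were rounded to whole numbers. Genes with over 5 counts in every library of at least 1 of 4 TRAP groups were fitted over 16 libraries with group as the only factor, so that mice shared by 2 of the groups were not modelled, in edgeR 4.0.16 (quasi-likelihood test, TMM, Benjamini-Hochberg adjusted p, R 4.3.3). The fit was tried on simulated counts with the same spread for every gene. Changes were put only into genes above 20 CPM, so that low-count calls were not covered. SE is the log2 fold change over the root of the F statistic. DESeq2 1.42.0 and limma 3.58.1 served alternatives of test, scaling, filter and left-out libraries. Named genes were, by a rule fixed beforehand, the 10 called genes with the largest change each way (at least 20 CPM in the higher group, no overlap), 5 each way among the microglial markers of the study, members of each list with the largest change or highest mean, the 5 genes highest in each group, and cell type markers. Some genes this rule names are not reported here. Floors stand at 3 counts over a group. Motifs came from RefSeq promoters and transcript lengths from GENCODE.

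Limits: the 4 mice of each group differed from the other group's in preparation and sequencing samples alike, Dounce libraries were shallow, and levels are relative within each library. Whether a level reflects transcription, RNA decay or RNA of other cells was not tested. Paired Input libraries are given as levels only. Single-gene calls near the fold threshold moved with scaling. Low-count genes carry wide intervals, and reads shared between near-identical genes cannot be assigned.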

Additional observations from a re-analysis of the deposited data

Results flagged for a closer look

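Some libraries stood far from the other 3 of their group, by a gap test on the 4 values of named genes and list sums. Of 320 groups of 4 values looked at, 30 held such a library, and chance alone gives about 1 in 20 such groups. Values below are given as the library in question against the range of the other 3.

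In Cell-TRAP (-) Inhibitors replicate 1, Alas2 was 35.3 CPM against 3.13 to 5.46 CPM and Apcdd1 was 46.4 CPM against 18.3 to 20.3 CPM. Hba-a1 was 462 CPM against 87.03 to 106 CPM and the sum of blood cell genes was 629 CPM against 131 to 150.4 CPM. The sum of oligodendrocytic and progenitor genes was 4393 CPM against 3396 to 3531 CPM. In Cell-TRAP (-) Inhibitors replicate 2, Ifit1 was 5.54 CPM against 11.5 to 12.5 CPM. In Cell-TRAP (-) Inhibitors replicate 4, Cth was 0.412 CPM against 1.42 to 1.51 CPM and Gadd45b was 73.6 CPM against 18.6 to 27.3 CPM. Gdf15 was 8.33 CPM against 1.03 to 1.76 CPM and Gpnmb was 38.4 CPM against 0.8700 to 5.17 CPM. Hspa8 was 2691 CPM against 1953 to 2076 CPM and Pecam1 was 85.7 CPM against 134 to 139 CPM. The sum of integrated stress response genes was 1163 CPM against 829 to 881 CPM and the sum of nuclear oxidative phosphorylation genes was 5708 CPM against 5349 to 5400.4 CPM.

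In Dounce-TRAP replicate 1, Gm5415 was 36.5 CPM against 22.7 to 24.8 CPM. In Dounce-TRAP replicate 2, Hspa1a was 16.4 CPM against 1.86 to 2.38 CPM and the sum of heat shock proteins was 5128 CPM against 4149 to 4216 CPM. In Dounce-TRAP replicate 3, Bsg was 622 CPM against 447 to 462 CPM and Csf1r was 6234 CPM against 9204 to 9664 CPM. Dusp5 was 9.32 CPM against 3.87 to 4.799 CPM and Ly6c1 was 4.100 CPM against 0 to 0.399 CPM. Mog was 145 CPM against 41.9 to 49.7 CPM and Rangap1 was 187 CPM against 321 to 347 CPM. Snhg11 was 3119 CPM against 2034 to 2125 CPM and Snhg6 was 11.2 CPM against 4.46 to 5.07 CPM. Vtn was 38.02 CPM against 12.5 to 15.2 CPM and the sum of Toll-like receptors and adaptors was 1133 CPM against 1825 to 1943 CPM. The sum of endothelial genes was 748 CPM against 584 to 608 CPM. In Dounce-TRAP replicate 4, Ccl3 was 1.19 CPM against 7.198 to 8.199 CPM and Tnf was 8.63 CPM against 0.599 to 1.07 CPM. Dounce replicate 3, the shallowest library, held 11 of the 30 and Cell-TRAP replicate 4 held 8.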

How the results depend on the processing

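The numbers of genes called were recomputed under 16 alternatives, 15 of which also gave the log2 fold changes of 129 genes followed singly (the other only changed the threshold). Among genes with at least 10 counts in every library, 1876 were called, 1561 higher and 315 lower, where fewer genes (10266) were tested. Genes with few counts in the shallow Dounce libraries drop out there, many falls among them. On the authors' log2 values 1846 genes were called lower, and with scaling to the microglial markers 621, and the cause was not tested. Under the other alternatives with all libraries (DESeq2's size factors, its Wald test, no filter, an adjusted p under 0.05, only the 8 compared libraries), the counts stayed within 1.5 times those reported. With 1 of the 8 libraries left out, 4097 to 4437 genes were called, 2922 to 3152 higher and 1138 to 1387 lower. Of the genes followed, 106 were called, or not called, alike under every alternative that tested them, 20 lost a call under at least 1, 2 gained one, and 1, not called before, gained one with the other sign. This was Alas2, a heme synthesis gene, at a log2 fold change of -0.08, and from -0.77 to 1.37 with 1 library left out, the latter without Cell-TRAP (-) Inhibitors replicate 1. Of 1889 single-gene values, 57 had another call, most of them with scaling to the microglial markers or a library left out. No paired analysis was possible because the groups compared come from different mice. At the depth of the Dounce libraries, genes at a few counts give wide intervals, and a gene at 0 counts is not shown to be absent.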
